A study of Homo sapiens with 30 samples.

Results

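The genes described here are GBP1, GBP2 and GBP3 of the guanylate-binding protein family, the transcription factors IRF1 and IRF2, and 5 genes that IRF1 is known to act on or to share a pathway with, namely SOCS1, CD274, PSMB8, PSMB9 and TAP1. They were taken as all probes whose gene name on the array is one of these symbols. This gave 12 probes for 10 genes, out of 58201 probes on the array and 32100 that were bright enough to be tested, which carry 24512 gene names. GBP3 and CD274 have a pair of probes each, of which the brighter one on average is used for the gene. All 12 probes were among those tested. The set was chosen by the values of GBP1 in pollen against mock at 2h25 min, where GBP1 was known to differ, so that comparison is given for all 10 genes as a description, with no test.

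The cells were BEAS-2B, a bronchial epithelial line of human origin that was made immortal, kept at the air-liquid interface. Birch pollen, 10 mg of whole grains, was blown with pressured air into a chamber and left to settle on them, while mock cells, labelled air, went through the same steps without pollen. RNA was taken at 5 times, the earliest 10 min and 55 min, then 2h25 min and 6h50 min, and at last 24 h, with 3 arrays for each of the 10 groups. All groups share the line, the air-liquid interface and the passage through the chamber, so that a change over time in mock includes any response to the handling. A cell line without the other cell types of the airway limits these groups as a model. On all 30 arrays the 7 epithelial markers looked up, among them KRT8, KRT18 and EPCAM, were well above background, but so were the 4 mesenchymal markers, among them VIM and CDH2. Of the airway secretory and ciliated markers, SCGB1A1 was well above background on 29 arrays, MUC5AC on 27 and FOXJ1 on 8. Markers of cells that the line should lack split within their lists, with PTPRC on 30 and CD3E on 17 arrays for leukocytes and CDH5 on 30 and PECAM1 on 0 for endothelial cells.

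The values are the log2 intensities of a spot minus the log2 of the 75th percentile of its array, called scaled log2 intensity below, so that a value of 0 is as bright as that percentile and a difference of 1 is a doubling. The share of probes well above background ran from 44.7% to 59.3% over the arrays, with 0 saturated spots. The 6h50 min arrays were at the low end, from 44.7% to 49.8%. Their 75th percentile before scaling was 578 to 1151, beside 1044 to 2111 on the other arrays. Levels are compared between samples for 1 probe, not between probes. The arrays lie on 5 slides. At 10 min, 6h50 min and 24 h pollen and mock of a time share a slide. The 6h50 min arrays fill a slide of their own that was scanned in a session of its own, so that this time and its slide cannot be told apart wherever it is compared with another time. Replicate 1 of pollen at 55 min was run on a different array design and is alone on its slide, and differences at 55 min that rest on it are also given within the slide that holds 2 pollen and 2 mock arrays. The arrays do not tell how RNA is spread over cells, so that fewer cells carrying an RNA and less of it per cell cannot be told apart.

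Guanylate-binding proteins are large GTPases that gather on membranes and on intracellular microbes, and they belong to the genes most strongly turned on by interferon-gamma. The interferon receptor acts through the kinases JAK1 and JAK2, and genes that respond to it, IRF1 among them, can hold gamma-activated sites in their promoters. IRF1 then binds interferon-stimulated response elements in genes such as those of the immunoproteasome subunits PSMB8 and PSMB9, the peptide transporter TAP1 and CD274, while IRF2 binds the same elements and can hold such genes back. IRF1 and GBP1 are also known to respond to inflammatory cytokines through NF-kB, without interferon. SOCS1 inhibits the JAK kinases and so closes the loop.

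The promoters of GBP1, GBP3, IRF1 and CD274, and of TAP1, whose level hardly differed between pollen and mock, are shown as examples because they hold different elements. RefSeq promoter windows on GRCh38.p14, of 250 bases before and 50 bases after a start, were found for 8 of the 10 genes, in 10 windows, since PSMB8 and TAP1 have a pair of starts each. GBP2 and IRF2 were not matched. Both strands were searched for the core of the interferon-stimulated response element (GAAA, any 2 bases, GAAA), for the gamma-activated site (TTC, any 3 bases, GAA) and for a kappa-B pattern (GGGA, any base, T, any 2 bases, CC). Of all 35116 promoters, 3.57% hold the first, 7.66% the second and 5.13% the third. The response element core was found in 6 of the 8 genes, which are GBP1, GBP3, SOCS1, CD274, PSMB8 and TAP1. The gamma-activated site was found in GBP3, IRF1, CD274, PSMB8 and TAP1, and the kappa-B pattern in IRF1 and TAP1, where the gamma-activated site of TAP1 lies before its other start. The genes were chosen as interferon targets, so these counts are a description, and a match is not a site shown to be bound. The lines below end at the base before the start, run 5' to 3' on the strand of the gene, and have the matched letters in capitals. They are chr1:89065209-89065355 for GBP1, chr1:89022867-89022966 for GBP3, chr5:132490774-132490917 for IRF1, chr9:5450314-5450541 for CD274 and chr6:32853705-32853858 for TAP1, all on the minus strand apart from CD274.
GBP1: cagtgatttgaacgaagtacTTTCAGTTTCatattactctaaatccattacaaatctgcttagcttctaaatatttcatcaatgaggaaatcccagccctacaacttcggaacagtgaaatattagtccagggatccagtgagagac
GBP3: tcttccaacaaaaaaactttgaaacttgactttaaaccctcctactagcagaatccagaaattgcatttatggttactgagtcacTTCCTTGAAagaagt
IRF1: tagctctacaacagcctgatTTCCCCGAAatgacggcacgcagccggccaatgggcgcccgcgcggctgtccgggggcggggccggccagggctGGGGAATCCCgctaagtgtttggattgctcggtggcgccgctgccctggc
CD274: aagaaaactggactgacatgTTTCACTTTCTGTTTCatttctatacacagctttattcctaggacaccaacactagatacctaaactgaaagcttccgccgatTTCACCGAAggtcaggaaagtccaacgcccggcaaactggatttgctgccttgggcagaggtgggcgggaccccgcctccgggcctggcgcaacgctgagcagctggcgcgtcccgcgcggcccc
TAP1: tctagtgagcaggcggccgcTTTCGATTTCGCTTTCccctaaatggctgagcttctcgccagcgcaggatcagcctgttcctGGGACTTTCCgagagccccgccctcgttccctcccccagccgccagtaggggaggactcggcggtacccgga
GBP1 holds a response element core 127 bases before its start. In GBP3 the match shown is a gamma-activated site, and its response element core begins 3 bases after the start, outside the line shown. IRF1 holds a gamma-activated site and then a kappa-B pattern. CD274 and TAP1 each hold a pair of response element cores that overlap by some bases, followed in CD274 by a gamma-activated site and in TAP1 by a kappa-B pattern.

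The comparison of pollen with mock at each time asked when, if at all, the pollen moved these genes. GBP1 was the gene that stood furthest from mock, and its probe lies at chr1:89518789-89518848 on the minus strand of hg19, the build of the files. At 10 min its scaled log2 intensity was -1.89, -1.68 and -1.72 in mock and -2.16, -1.65 and -1.73 in pollen, so that the groups overlapped. At 55 min it was -1.92, -1.66 and -1.71 in mock and -1.51, -1.44 and -1.46 in pollen. All 3 pollen arrays lay above all 3 mock arrays, by 0.29 ± 0.12 (SE) on the log2 scale or 1.22-fold, which did not pass the test over all probes (adjusted p = 0.92). On the slide that holds a pair of arrays of each exposure, without the array of the other design, the difference was 0.23.

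At 2h25 min GBP1 stood at -1.85, -1.79 and -1.73 in mock and at -0.86, -1.0 and -1.21 in pollen. The lowest pollen array was above the highest mock array, and the difference was 0.77 ± 0.12 (SE), or 1.70-fold. Within slides it was 0.89 with a pair of arrays of each exposure and 0.52 with 1 array of each. Its size lay between 0.70 and 0.80 in the other ways of processing and between 0.68 and 0.86 with 1 array left out. At 6h50 min mock was at -2.10, -2.07 and -2.21 and pollen at -1.88, -1.95 and -2.02. Pollen was again above mock on all arrays, by 0.18 ± 0.12 (SE, adjusted p = 0.88). At 24 h mock was at -2.63, -2.79 and -2.70 and pollen at -2.86, -2.47 and -2.69, a difference of 0.03 ± 0.12 (SE) with groups that overlapped.

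The order of the 10 group means of GBP1 was led by pollen at 2h25 min with -1.02 ± 0.17 (SD, n = 3), followed by pollen at 55 min with -1.47 ± 0.04. Mock at 55 min, 10 min and 2h25 min and pollen at 10 min came next, between -1.76 and -1.85, and did not differ from each other beyond their spread. Pollen at 6h50 min with -1.95 ± 0.07 followed, within the spread of pollen at 10 min, and then mock at 6h50 min with -2.13 ± 0.08. Pollen and mock at 24 h were lowest, with -2.67 ± 0.19 and -2.71 ± 0.08, and did not differ beyond their spread.

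**Figure D1:**
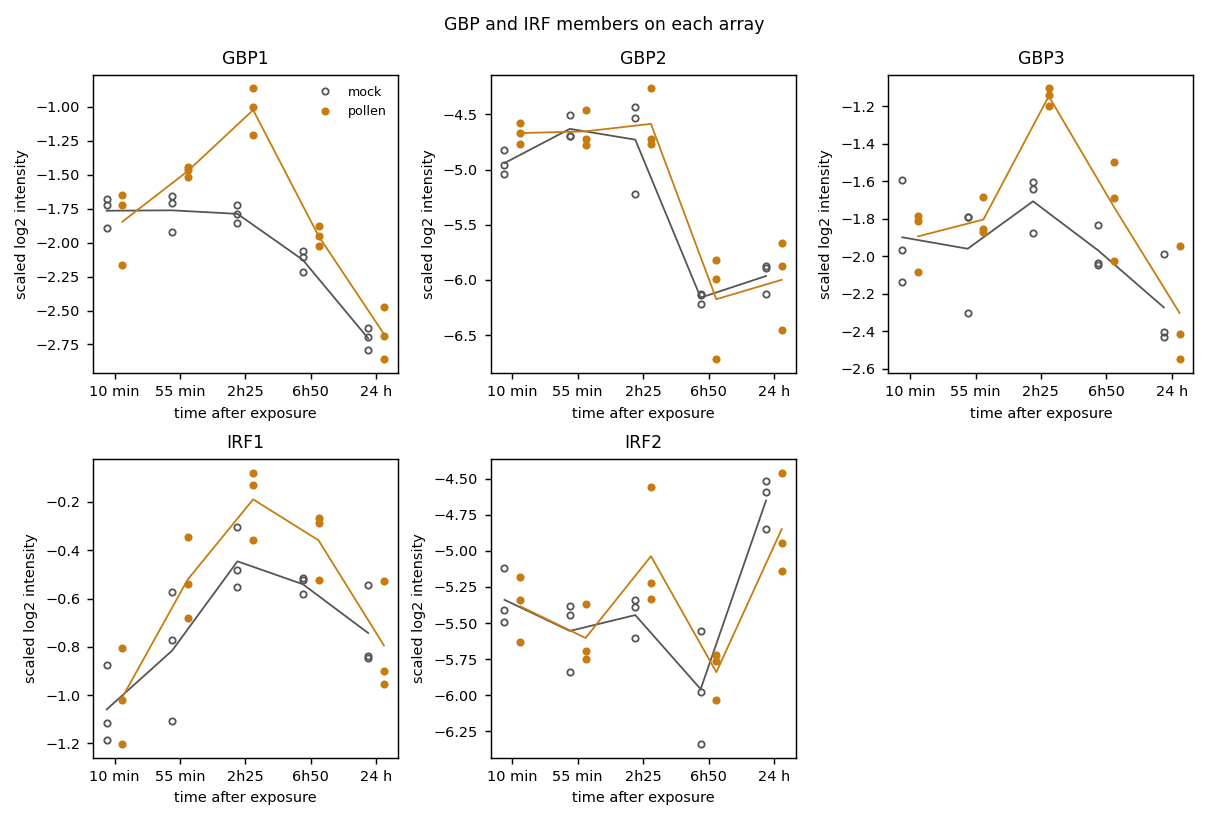
Scaled log2 intensity (vertical axis) of GBP1, GBP2, GBP3, IRF1 and IRF2 at the 5 times (horizontal axis), with an open circle for each mock array, a filled circle for each pollen array and lines through the means of 3 arrays. The pollen arrays of GBP1 and GBP3 at 2h25 min, from -1.21 to -0.86 and from -1.20 to -1.10, lie above all other arrays of the same gene.

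GBP3, which shares the chromosome 1 cluster of this family with GBP1 and GBP2, followed GBP1 at 2h25 min. Its main probe, at chr1:89472549-89472608, was at -1.88, -1.64 and -1.60 in mock and at -1.10, -1.14 and -1.20 in pollen. All pollen arrays were above mock, by 0.56 ± 0.18 (SE), and by 0.64 and 0.41 within slides. Its other probe, at chr1:89476589-89476648 and of another transcript by its accession, was at -1.77, -1.35 and -1.69 in mock and at -0.99, -0.96 and -1.11 in pollen, a difference of 0.59 ± 0.14 (SE). The 2 probes thus gave nearly the same difference. At 6h50 min the main probe differed by 0.23 ± 0.18 (SE, adjusted p = 0.92) with groups that overlapped. The other probe differed there by 0.46 ± 0.14 (SE, adjusted p = 0.21), from -3.10, -3.11 and -3.07 in mock to -2.76, -2.51 and -2.61 in pollen, with no overlap. At 10 min, 55 min and 24 h the main probe differed by 0.00, 0.16 and -0.03, all below the SE of 0.18, and within the slide shared by both exposures the difference at 55 min was 0.02.

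GBP2 did not follow them. Its probe was well above background on 28 of the 30 arrays. At 2h25 min it was at -5.22, -4.44 and -4.53 in mock and at -4.77, -4.26 and -4.72 in pollen, and the difference was 0.14 ± 0.22 (SE) with groups that overlapped. The only time at which its pollen arrays stood clear of mock was 10 min, with -5.04, -4.96 and -4.83 in mock and -4.58, -4.76 and -4.67 in pollen, a difference of 0.27 ± 0.22 (SE) that did not pass the test. Its difference was between -0.03 and -0.01 at 55 min, 6h50 min and 24 h. Whether the effect of pollen differed between the members of the family was not tested.

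IRF1, the activator, had a higher mean in pollen than in mock at each time but 24 h, and its groups overlapped at both ends of the course. At 10 min it was at -0.87, -1.12 and -1.19 in mock and at -0.80, -1.02 and -1.20 in pollen, a difference of 0.05 ± 0.15 (SE), and at 24 h at -0.54, -0.84 and -0.85 in mock and at -0.53, -0.90 and -0.95 in pollen, a difference of -0.05 ± 0.15. At 55 min it was at -1.11, -0.77 and -0.57 in mock and at -0.35, -0.54 and -0.68 in pollen, a difference of 0.29 ± 0.15 (SE, adjusted p = 0.92). The highest value at that time is the array of the other design, and without it, within the slide shared by both exposures, the difference was 0.06. At 2h25 min it was at -0.30, -0.48 and -0.55 in mock and at -0.13, -0.08 and -0.36 in pollen, which differ by 0.26 ± 0.15 (SE), and the groups overlapped. At 6h50 min it was at -0.51, -0.58 and -0.52 in mock and at -0.29, -0.27 and -0.52 in pollen, a difference of 0.18 ± 0.15 (SE, adjusted p = 0.93). The 95% interval of that difference, from -0.12 to 0.48, holds both 0 and a rise as large as those named above. IRF1 thus overlapped between the exposures at each of the 5 times. Its group means were highest in pollen at 2h25 min with -0.19 ± 0.15 (SD, n = 3) and lowest in mock at 10 min with -1.06 ± 0.16, and in that order no group differed from its neighbours beyond their spread.

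IRF2, which can act against IRF1, had a dim probe, well above background on 29 of the 30 arrays. At 2h25 min it was at -5.34, -5.39 and -5.60 in mock and at -5.34, -4.56 and -5.22 in pollen. The pollen arrays were all above mock, replicate 1 by less than the last digit given, and replicate 2 was the highest. The difference was 0.41 ± 0.21 (SE), and 0.17 without pollen replicate 2 and also with the normexp and quantile values. At the other times it was between -0.20 and 0.12.

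SOCS1, the inhibitor of the JAK kinases, did not stand apart from mock at any time. Its largest difference was -0.42 ± 0.20 (SE, adjusted p = 0.92) at 55 min, with -4.42, -4.97 and -4.86 in mock and -5.33, -5.38 and -4.80 in pollen. The first of the pollen arrays is of the other design, and within the slide shared by both exposures the difference was -0.17. At 2h25 min SOCS1 was at -4.72, -4.91 and -4.40 in mock and at -4.37, -4.78 and -4.45 in pollen, a difference of 0.14 ± 0.20 (SE). At 10 min, 6h50 min and 24 h the differences were 0.02, -0.23 and 0.18 with the same SE.

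CD274, the ligand of the T cell receptor PD-1, was above mock on all pollen arrays at 2h25 min and at 6h50 min. At 2h25 min it was at -3.74, -3.80 and -3.69 in mock and at -3.47, -3.57 and -3.56 in pollen, a difference of 0.21 ± 0.13 (SE). At 6h50 min it was at -3.04, -3.32 and -3.38 in mock and at -2.98, -2.97 and -2.86 in pollen. The difference of 0.31 ± 0.13 (SE), which was 0.10 with the normexp and quantile values, had the smallest adjusted p of the genes at that time, 0.59, and did not pass the test. The dimmer probe of CD274 differed by 0.51 ± 0.21 (SE, adjusted p = 0.52) at 6h50 min, with groups that overlapped, and by 0.10 ± 0.21 at 2h25 min. At 55 min the difference was 0.28 ± 0.13 (SE), which was 0.05 without mock replicate 1, 0.44 without mock replicate 2 and 0.14 within the slide shared by both exposures. At 10 min CD274 was at -3.68, -3.74 and -3.74 in mock and at -3.75, -3.84 and -3.81 in pollen, all below mock by a small amount.

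The genes that present antigen differed little between pollen and mock. PSMB8 differed by -0.18 ± 0.11 (SE) at 55 min, where its pollen arrays with 1.66, 1.96 and 1.95 lay below the mock arrays with 2.00, 2.10 and 2.01. The lowest of these is the array of the other design, and within the slide shared by both exposures the difference was -0.10. PSMB8 differed by 0.23 ± 0.11 (SE, adjusted p = 0.68) at 6h50 min, where 1.70, 2.01 and 1.75 in mock overlapped with 2.10, 2.08 and 1.97 in pollen. PSMB9 differed by -0.15 to 0.16 and TAP1 by -0.04 to 0.08 over the 5 times, with groups that overlapped throughout, and TAP1 differed at 55 min by 0.06, but by -0.09 within that slide. At 2h25 min TAP1 was at 3.72, 3.71 and 3.86 in mock and at 3.72, 3.66 and 3.84 in pollen.

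**Figure D2:**
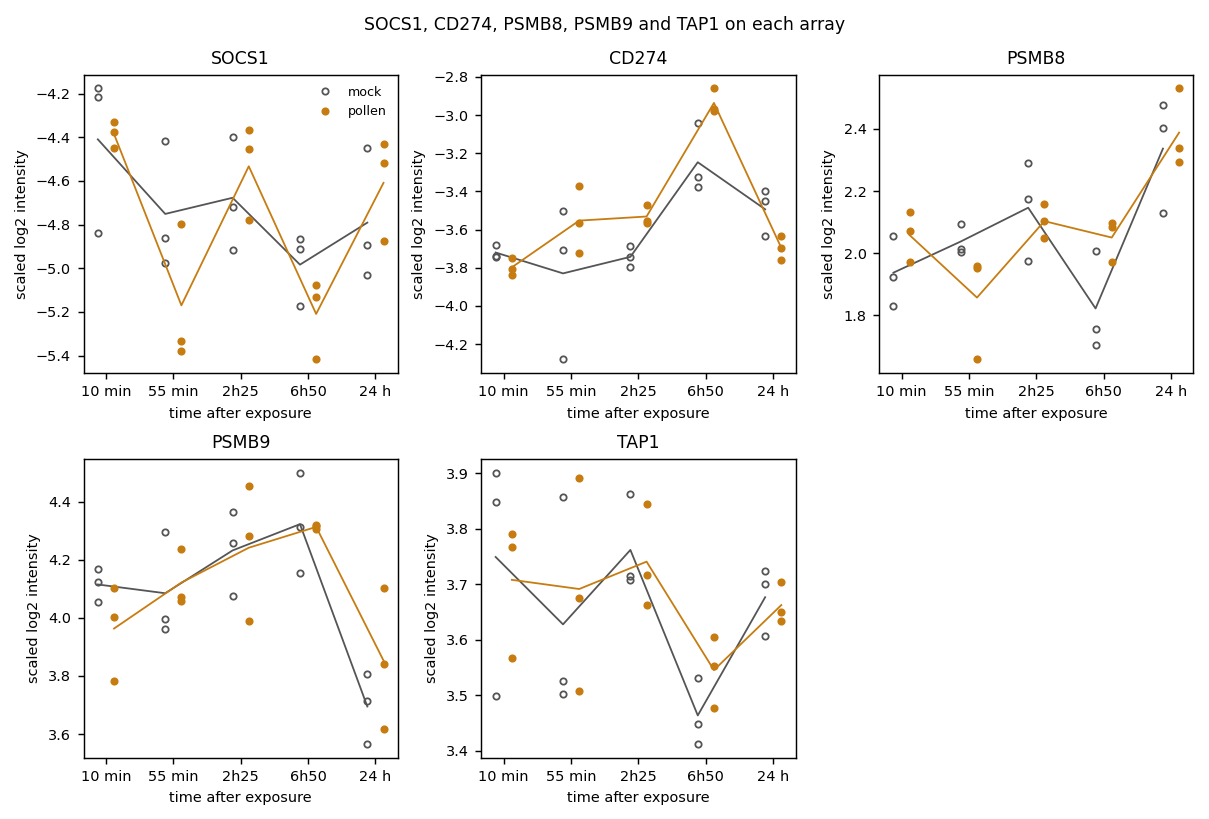
Scaled log2 intensity (vertical axis) of SOCS1, CD274, PSMB8, PSMB9 and TAP1 at the 5 times (horizontal axis), with an open circle for each mock array, a filled circle for each pollen array and lines through the means of 3 arrays. CD274 is highest at 6h50 min, where pollen lies between -2.98 and -2.86 and mock between -3.38 and -3.04, and the exposures of TAP1 overlap at each time.

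Counted over the 10 genes with limma, at an adjusted p under 0.05 and at least 1.1-fold, 0 were called at 10 min (0% of all probes tested), 0 at 55 min (0.00312%), 0 at 6h50 min (0.0436%, with 0.0374% higher and 0.00623% lower) and 0 at 24 h (0.00312%). At an unadjusted p under 0.05 the counts were 0 (1.83% of all probes), 1 (5.08%), 1 (7.44%) and 0 (3.61%). At 2h25 min the values that chose the set gave 1 gene of the 10 past both thresholds, GBP1 (0.0343% of all probes), and nothing is read from that count. All pollen arrays were above all mock arrays for 1 gene at 10 min (3.85% of all probes), 1 at 55 min (4.73%), 4 at 2h25 min (2.85%), 2 at 6h50 min (6.51%) and 0 at 24 h (5.33%). They were all below for 1 gene at 10 min (1.96%), 1 at 55 min (3.94%) and 0 at 2h25 min (4.12%), 6h50 min (5.21%) and 24 h (3.47%). These shares are over the probes with a value on all arrays of a time. Those were 23921 at 55 min, which has the array of the other design, and 32075 to 32097 at the other times. The median difference of the 10 genes was -0.02, 0.05, 0.18, 0.15 and -0.02 in the order of the times, beside medians of all tested probes between -0.03 and 0.01. At 2h25 min GBP1, whose values there chose the set, is among the 4 genes with no overlap. Nothing is read from that count or from the median at that time.

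**Figure D3:**
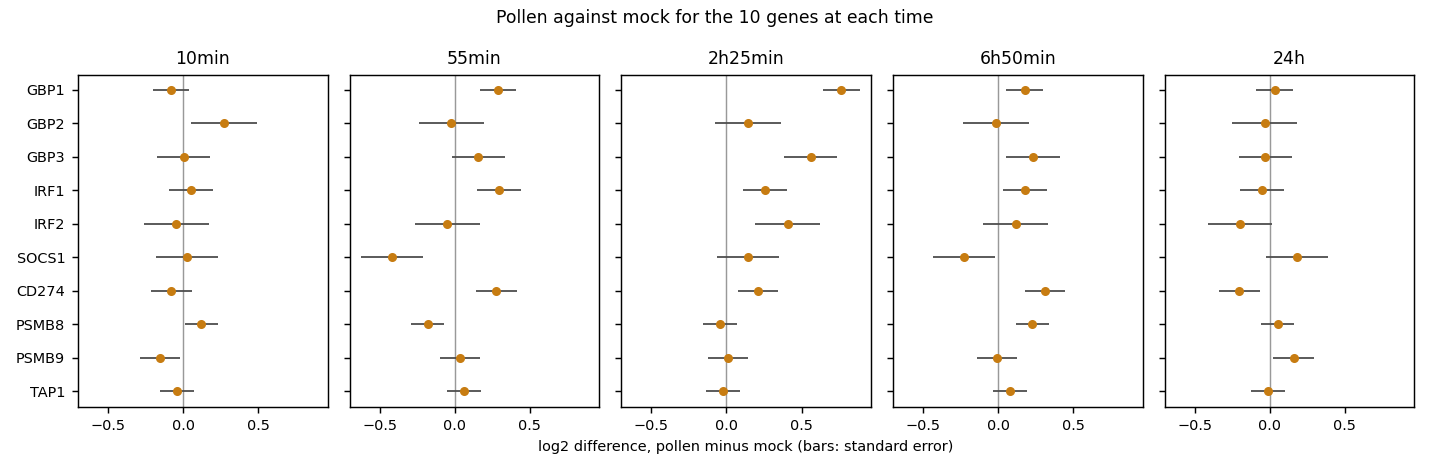
Log2 difference between pollen and mock (horizontal axis, with bars of 1 standard error from limma) of the 10 genes (vertical axis) in a panel for each time. The largest points are those of GBP1 and GBP3 at 2h25 min with 0.77 and 0.56, and at 24 h all 10 lie between -0.20 and 0.18.

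The change in the effect of pollen between neighbouring times was fitted as a difference of differences, and 0 of the 10 genes were called in any of the 4 steps, where 0% to 0.00312% of all probes were. At an unadjusted p under 0.05 the count was 1 in each step, beside 1.38% to 5.6% of all probes. In the steps to and from 2h25 min that gene was GBP1, and nothing is read from the count there. The effect on GBP1 changed by 0.37 ± 0.17 (SE, adjusted p = 0.95) from 10 min to 55 min, and then by 0.48 to 2h25 min and by -0.59 to 6h50 min, steps that share their arrays with the comparison it was chosen for and are given with no test. From 6h50 min to 24 h the effect on CD274 changed by -0.51 ± 0.19 (SE, adjusted p = 0.89). With GBP1 left out in the steps to and from 2h25 min, the effect of pollen on these genes is thus not shown to differ between neighbouring times.

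The times within one exposure were compared next, which follows the genes in mock and in pollen cells apart. In the first 2 steps, from 10 min to 55 min and on to 2h25 min, 0 of the 10 genes were called in mock or in pollen. Of all probes 0.187% were called in the former step in mock (0.115% higher, 0.0717% lower) and 0.0156% in the latter (0.00935% higher, 0.00623% lower). In pollen these were 0.841% (0.421% higher, 0.421% lower) and 0.202% (0.159% higher, 0.0436% lower). At an unadjusted p under 0.05 there were 0 (10.8% of all probes) and 1 (4.3%) in mock and 3 (15%) and 6 (8.42%) in pollen. GBP1 is among the 6. The counts of the latter step share arrays with the comparison that chose the set, and nothing is read from them. The pollen arrays of 10 min and 55 min share no slide, so that the step between them and the slide cannot be told apart. IRF1 moved by 0.24 ± 0.15 (SE) and 0.37 ± 0.15 in mock and by 0.49 ± 0.15 and 0.33 ± 0.15 in pollen, with adjusted p-values of 0.55, 1.00, 0.12 and 0.55. On the slide of the 10 min arrays, which holds 1 mock array of 55 min, its former step in mock was -0.05. Within a slide its latter step was 0.28 in mock and 0.50 in pollen. SOCS1 moved by -0.78 ± 0.20 (SE, adjusted p = 0.071) in pollen from 10 min to 55 min, and was called without replicate 3 of pollen at 55 min, at -0.97. GBP3 moved by 0.66 ± 0.18 (SE, adjusted p = 0.18) from 55 min to 2h25 min in pollen and by 0.25 ± 0.18 in mock.

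From 2h25 min to 6h50 min 5 of the 10 genes were called in mock (32.4% of all probes), 1 higher (9.9%) and 4 lower (22.6%), and 6 in pollen (31%), 1 higher (11.1%) and 5 lower (19.9%). GBP1 is among the lower ones in both counts, although its own step is given below with no test. From there to 24 h 4 were called in mock (40.5%), 2 higher (24.7%) and 2 lower (15.9%), and 8 in pollen (36.2%), 3 higher (21.8%) and 5 lower (14.5%). The medians of all probes shifted by -0.15 and -0.11 in the former step and by 0.14 and 0.11 in the latter, in mock and in pollen. The steps share the 6h50 min arrays, on a slide of their own, and the time and the slide cannot be told apart. Scaled to the 75th percentile over the own probes of each array, GBP2 was still called in both exposures to 6h50 min. To 24 h, IRF2 was still called in both exposures and GBP1 and CD274 in pollen. With the slide as a random block, GBP2 and CD274 were called in mock to 6h50 min, and GBP1, IRF2 and CD274 in pollen to 24 h. With no filter on dim probes, GBP2 and CD274 were called in mock to 6h50 min, and GBP1, GBP3, IRF2, CD274 and PSMB9 in pollen to 24 h.

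Among the probes that stand for a gene, GBP2 had the largest change. Its mock arrays fell from -5.22, -4.44 and -4.53 at 2h25 min to -6.13, -6.14 and -6.22 at 6h50 min, by 1.43 on the log2 scale (SE 0.22, adjusted p = 7.4e-05), and its pollen arrays from -4.77, -4.26 and -4.72 to -5.82, -6.72 and -5.99, by 1.59 (SE 0.22, adjusted p = 2.5e-05). The lowest of these, at -6.72, was not well above background, nor was pollen replicate 1 of 24 h at -6.46. It stayed low at 24 h, between -6.46 and -5.67 in both exposures. On the slide that holds replicate 3 of 2h25 min and all of 24 h, mock was at -4.53 at 2h25 min and between -6.12 and -5.88 at 24 h. In the normexp and quantile values, made with an offset of 50, the fall in mock was 0.21 and was not called (adjusted p = 0.055). The effect of the offset on dim probes was not tested.

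GBP1 fell in both exposures to 24 h. From 6h50 min to 24 h the fall was 0.58 in mock (SE 0.12, adjusted p = 0.00075) and 0.72 in pollen (SE 0.12, adjusted p = 0.00012), and 24 h was below 2h25 min on the slide that holds both, at -2.79 to -2.63 against -1.73 in mock. From 2h25 min to 6h50 min it fell by 0.34 in mock and by 0.93 in pollen, given with no test because the 2h25 min arrays had chosen it. The main probe of GBP3 fell by 0.59 in pollen (SE 0.18, adjusted p = 0.014) from 2h25 min to 6h50 min and by 0.56 (SE 0.18, adjusted p = 0.016) to 24 h, and the former call was lost without replicate 1 of pollen at 6h50 min, the latter without replicate 2 or 3 of 6h50 min or 1 or 2 of 24 h. Its 2 probes disagreed in these steps. The other probe fell by 1.49 in mock (SE 0.14, adjusted p = 4.7e-07) and fell by 1.61 in pollen (SE 0.14, adjusted p = 2.3e-07) to 6h50 min, and then rose by 0.48 in mock (adjusted p = 0.0082), where the main probe moved by -0.30 ± 0.18 (SE), and moved by -0.02 (adjusted p = 0.92) in pollen. GBP4, a further member of the family, fell at 6h50 min too, from -4.29 ± 0.46 (SD, n = 3) to -5.89 ± 0.28 in mock, and was at -4.73 ± 0.35 at 24 h.

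In pollen IRF2 fell by 0.80 (SE 0.21, adjusted p = 0.0072) to 6h50 min, a call that was lost without replicate 2 of 2h25 min, with the normexp and quantile values (-0.13, adjusted p = 0.29) and in the deposited table (-0.19, adjusted p = 0.32). It rose from 6h50 min to 24 h, by 1.31 ± 0.21 (SE, adjusted p = 7.3e-05) in mock, from -5.98, -6.34 and -5.56 to -4.52, -4.85 and -4.59, and by 0.99 ± 0.21 (SE, adjusted p = 0.0012) in pollen. The mock array at -6.34 was not well above background. With the normexp and quantile values neither rise was called, at 0.21 in mock (adjusted p = 0.067) and 0.21 in pollen (adjusted p = 0.081), and in the deposited table that in pollen was not (0.29, adjusted p = 0.10). On the slide of 24 h, replicate 3 of mock at 2h25 min was at -5.60, below all arrays of 24 h. IRF1 fell over the same step by 0.44 in pollen (SE 0.15, adjusted p = 0.024), a call that was lost without replicate 1 or 2 of pollen at 6h50 min or replicate 2 or 3 at 24 h. In mock it moved by -0.20 ± 0.15 (SE, adjusted p = 0.28), but was called with the normexp and quantile values at -0.41 (adjusted p = 0.028) and in the deposited table at -0.43 (adjusted p = 0.015). In pollen SOCS1 fell by 0.68 (SE 0.20, adjusted p = 0.016) to 6h50 min and rose by 0.60 ± 0.20 (SE, adjusted p = 0.026) to 24 h. The first of these calls was lost without replicate 1 of 2h25 min or 2 of 6h50 min, and the second without replicate 2 of 6h50 min or 1 or 3 of 24 h. Neither was called with the normexp and quantile values, at -0.13 (adjusted p = 0.39) and 0.14 (adjusted p = 0.33), or in the deposited table, at -0.19 (adjusted p = 0.36) and 0.21 (adjusted p = 0.29).

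CD274 went the other way and rose to 6h50 min, by 0.50 ± 0.13 (SE, adjusted p = 0.0081) in mock and by 0.60 ± 0.13 (SE, adjusted p = 0.0023) in pollen. To 24 h it fell by 0.76 in pollen (SE 0.13, adjusted p = 2.0e-04), from -2.98, -2.97 and -2.86 to -3.70, -3.63 and -3.76, and moved by -0.25 ± 0.13 (SE, adjusted p = 0.15) in mock. The call in mock was lost without replicate 1 of 6h50 min, at 0.39. Its dimmer probe moved by 0.11 ± 0.21 in mock and by 0.53 ± 0.21 (SE, adjusted p = 0.059) in pollen to 6h50 min, and by -0.31 (adjusted p = 0.25) in pollen to 24 h.

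Of the antigen presentation genes, PSMB9 fell from 6h50 min to 24 h, by 0.63 in mock (SE 0.13, adjusted p = 0.00088), from 4.50, 4.31 and 4.15 to 3.57, 3.81 and 3.71, and by 0.46 in pollen (SE 0.13, adjusted p = 0.011). The pollen call was lost without replicate 1 of 24 h. PSMB8, its partner in the immunoproteasome, rose over the same step, by 0.51 ± 0.11 (SE, adjusted p = 0.00099) in mock and by 0.34 ± 0.11 (SE, adjusted p = 0.021) in pollen. The latter call was lost without replicate 3 of 6h50 min or 1 of 24 h. To 6h50 min PSMB8 fell by 0.32 in mock (SE 0.11, adjusted p = 0.030) and TAP1 by 0.30 (SE 0.11, adjusted p = 0.048). The TAP1 call was lost whichever of the 6 arrays was left out, and the PSMB8 call without replicate 1 or 3 of either time. Over all 10 groups the means of TAP1 spanned 0.30, less than for any other of the 10 genes, and those of GBP1 spanned 1.68.

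**Figure D4:**
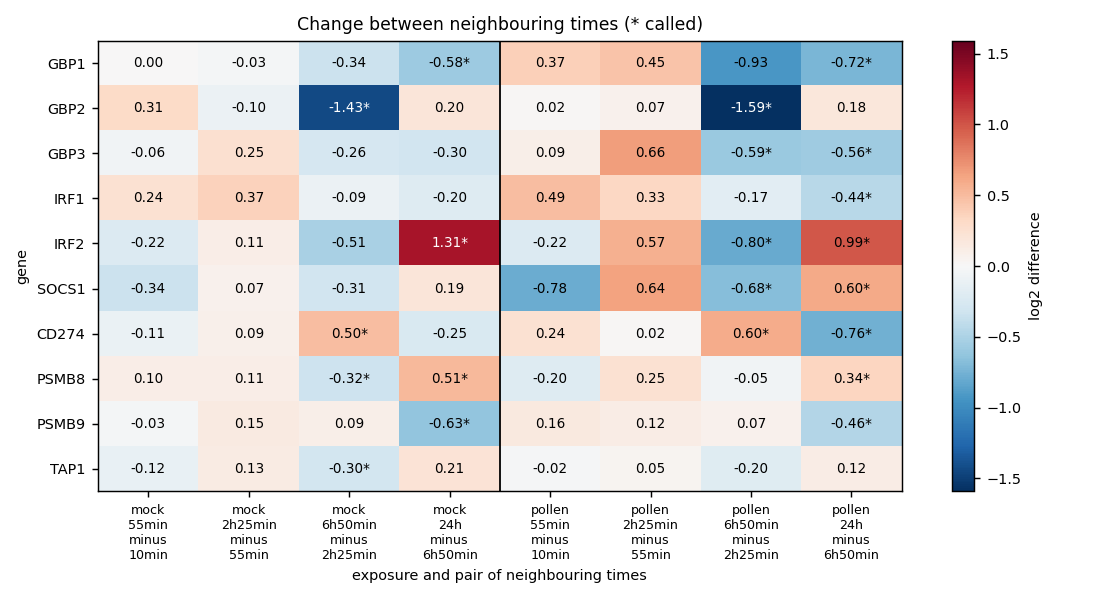
Log2 difference between neighbouring times (number and colour of a cell, blue for lower and red for higher at the later time) of the 10 genes (rows) within mock and within pollen (columns), with a star where limma's test called it, GBP1 in steps with 2h25 min left out. GBP2 changed by -1.43 and -1.59 to 6h50 min, IRF2 by 1.31 and 0.99 to 24 h, and no star stands in the steps up to 2h25 min.

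The rest of the pathway was read from 85 further genes, of which 69 had a tested probe. Of the 9 ligands looked up 8 had a probe and 2 were tested, IFNE and IFNL2, of which 0 were called in pollen against mock. IFNL2, a type III interferon, fell by 1.34 in mock (adjusted p = 0.0029) and by 0.89 in pollen (adjusted p = 0.035) to 6h50 min, and to 24 h rose by 1.07 in mock (adjusted p = 0.0095) and moved by 0.49 in pollen (adjusted p = 0.22). IFNG was well above background on 0 of the 30 arrays and IFNB1 on 2, and the interferon-induced chemokine CXCL10 and the other PD-1 ligand PDCD1LG2 on 0. All 13 receptor and signalling genes were tested and 0 were called in pollen against mock at any time, again near that share. At 2h25 min JAK1 differed by 0.05 ± 0.13 (SE), JAK2 by -0.02 ± 0.12, IFNGR1 by 0.22 ± 0.16 and IFNGR2 by 0.25 ± 0.11. Of the other members of the family, GBP4 differed by -0.04 ± 0.24 and GBP5 by 0.08 ± 0.45 at that time.

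Of the 17 further class I presentation genes and the 14 tested further genes known to respond to interferon-gamma, 0 were called in pollen against mock at any time. This is near the share of all probes, 0% to 0.0436%. At 2h25 min TAP2, the partner of TAP1, differed by 0.05 ± 0.12 (SE), PSMB10, the third inducible proteasome subunit, by -0.03 ± 0.11, and B2M by 0.05 ± 0.11. The medians of these lists at 2h25 min were -0.03 and -0.01. The 1 gene of the 69 called in pollen against mock was SOCS3 at 2h25 min (0.0343% of all probes), an inhibitor of cytokine receptors that signal through gp130. SOCS3 went from -0.53 ± 0.24 (SD, n = 3) in mock to 0.61 ± 0.17 in pollen. It was among the genes known to be called when the list was made. Over all 69 genes the median difference was between -0.003 and 0.07 at the 5 times.

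The genes whose pattern over the 30 arrays was most like that of GBP1, among 13322 genes well above background on all arrays, were CCL2 (Pearson r = 0.92), PTGER4 (0.92), MAP3K8 (0.92), WWC1 (0.91) and SNAI2 (0.91). GBP3 had r = 0.81 and came 75th, and IRF1 had 0.34. For IRF1 they were MAFK (0.87), SERPINB8 (0.85), PANX1 (0.83), HBEGF (0.82) and SOWAHC (0.82), while CD274 had 0.50 and SOCS1 -0.48. The arrays share their times and slides, which move many genes, so these values are a description and carry no test.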

How the data were processed

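Expression was measured in 30 samples of BEAS-2B cells on one-colour Agilent arrays, 3 for each exposure and time. The authors deposited spot intensities made with Agilent Feature Extraction 11.0.1.1 (per the submitters' processing notes), with background subtraction and detrending inside each array and no scaling across arrays. They also deposited a table of log2 values, per the methods preprocessed with limma, whose scale is quantile normalized by its values. Its column for the 55 min pollen replicate 1 array, of another design, did not match that array and was left out, and its 6 columns at 24 h match other arrays of their own group best. Value columns without a condition numbered 0.

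Spots marked uneven or as outliers were left out, replicate spots averaged, and log2 intensities scaled to the 75th percentile over the 33873 probes on both array designs. Tests were run on the 32100 probes that were well above background in each of the 3 arrays of some group. With limma 3.58.1 in R 4.3.3, 10 group means were fitted to all arrays (lmFit, eBayes, 20 residual and 2.35 prior degrees of freedom). Calls needed a p under 0.05 after Benjamini-Hochberg adjustment over all tested probes and a change of 1.1-fold or more, the thresholds of the study. The fit was tested on simulated data. The genes, the pathway lists, the markers and the tests were chosen with earlier results of these data known. Text names all 10 genes, with array values where their results turn on them, from each list any gene called between pollen and mock and a set of close neighbours in the pathway, and the 5 genes most like GBP1 and IRF1 by Pearson r.

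Pollen and mock arrays of the same replicate number were compared by their deviations from the group mean. These correlated by 0.30 to 0.31 at 10 min, 0.38 to 0.50 at 2h25 min and 0.19 to 0.42 at 24 h. The correlation was -0.05 to 0.23 at 55 min and 0.05 to 0.09 at 6h50 min, where not every pair was above 0.1. The main fit of group means holds no pairs, so its SEs and p-values are unpaired at each time. Pairs entered only through the replicate block, an alternative that was fitted within each time. The methods speak of repetitions on different days for exposures, but the labels do not tie the arrays to days, so p-values measure the spread between these arrays only. Their number limits the precision. Alternatives were another percentile, normexp (offset 50) with quantile normalization, the deposited table, no filter, array weights, the replicate block, the slide as a random block, leaving out dim areas (local median under -0.3) and leaving out each array. Promoters were taken from RefSeq on GRCh38.p14 and probe positions from the files on hg19, with no annotation of that build used here.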

Additional observations from a re-analysis of the deposited data

Results flagged for a closer look

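CD274 lay below mock on all pollen arrays at 10 min and above mock on all pollen arrays at 2h25 min and at 6h50 min. The log2 differences were -0.078 at 10 min, 0.21 at 2h25 min and 0.31 at 6h50 min, each with an SE of 0.13 from 3 arrays a group. The effect of pollen at 6h50 min minus that at 10 min, a comparison chosen after seeing the data, was 0.39 ± 0.19 (SE). It did not pass limma's test over all probes (adjusted p = 1.00). Groups of 3 arrays were too small to be searched for single arrays far from the others.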

How the results depend on the processing

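The differences between pollen and mock rest on 3 arrays a group. Dim probes such as those of GBP2, IRF2 and SOCS1 changed less in the steps named above with normexp, whose offset was not varied alone. Over the other ways of processing, some of their differences in mock also changed sign. From 2h25 min to 6h50 min they ran from -0.59 to 0.13 for IRF2 and from -0.41 to 0.20 for SOCS1. From 6h50 min to 24 h they ran from -0.22 to 0.21 for GBP2 and from -0.13 to 0.35 for SOCS1. Counts of the 10 genes called moved by over 1.5 times as follows. Nothing is read from counts of pollen against mock at 2h25 min, which rest on the values that chose the set. With the 75th percentile over own probes the counts were 0 for pollen against mock at 2h25 min, 1 and 1 in mock to 6h50 min and to 24 h, and 2 and 3 in pollen. GBP1 is among the 2 in pollen to 6h50 min, a step given for it with no test. Calls over all 32100 probes fell as well in that setting. They were 4075 and 6713 in mock and 3959 and 5308 in pollen, beside 10416, 13012, 9944 and 11622 in the main fit. Scaling to that percentile also shifted the median of all probes at 55 min by -0.37, where GBP1 was at -0.12. With no filter, which tests 58201 probes, the counts of the 10 genes were 0 at 2h25 min, 2 in mock to 6h50 min and 5 in pollen to 24 h. Over all probes these were 3, 8809 and 9518. Mock to 6h50 min gave 1 with normexp and quantile (9197 over all probes), 2 with the deposited table (10715) and 2 with the slide as a random block (5597). The slide block gave 3 in pollen to 24 h (6973 over all probes). Array weights gave 1 in pollen from 10 min to 55 min, with 735 called over all probes beside 270 in the main fit. The number of all probes called in pollen against mock at 6h50 min also hung on the processing. It was 14 in the main fit, 3 with no filter, 303 with normexp and quantile, 380 with array weights and 386 with the deposited table. The causes were not tested.

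Calls over all probes were not counted in the fits with 1 array left out, so the counts of these fits stand without that share. With 1 array left out, the counts ran from 0 to 1 at 2h25 min, where nothing is read from them. They ran from 1 to 3 in mock to 6h50 min, from 0 to 1 in pollen to 55 min, from 5 to 6 in pollen to 6h50 min and from 4 to 7 in pollen to 24 h. They stayed at 4 in mock to 24 h and at 0 for pollen against mock at the other 4 times, in both early steps in mock, in pollen from 55 min to 2h25 min and for the change in the effect of pollen. The other probe of GBP3 reversed its change in mock to 24 h, at 0.48. With the replicate block within each time, 0 genes were called between pollen and mock at the 4 times other than 2h25 min. The pairing thus changed no call at those times. Time comparisons could not be fitted with that block, since it lies within a time. At 55 min and 6h50 min the numbers were not shown to pair the arrays.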
